A study of Mus musculus with 2 samples.

Results

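Cathepsins are proteases of the lysosome, and the results below follow 10 of their genes, Ctsa, Ctsb, Ctsc, Ctsd, Ctsh, Ctsk, Ctsl, Ctss, Ctsw and Ctsz, through the immune cells of mouse B16 melanoma tumors. The genes were taken by symbol from the 31253 features of the count tables, and all 10 were found. They held 34139 UMIs (unique molecular identifiers, each marking 1 captured RNA molecule) in the kept cells of 1 library and 38331 in those of the other, or 0.887% and 0.955% of all UMIs.

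Both groups used wild-type host mice that were vaccinated under the skin of the left flank with irradiated B16 cells making GM-CSF. B16 cells carrying a hairpin against Sdc1 (shSdc1) or a control hairpin (shRFP) went into the right flank 12 days later. The tumors grew for 16 days, 6 of each kind were combined, and living CD45+ cells were sorted for 10x Genomics 3' sequencing. The genotype label of the shSdc1 sample reads "Sdc1 knock out (KO)", whereas by title and protocol only the injected tumor cells carry the hairpin, and the age of the mice is not stated in the sources used. Each group is therefore 1 library of pooled animals, so that no difference between the groups has a replicate check, no p-value is given, and every 95% interval covers counting error only.

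The shRFP library kept 4983 cells with a median of 650 UMIs and the shSdc1 library 5313 cells with a median of 593. The knockdown was in the tumor cells, so Sdc1 in the sorted cells (102 UMIs in shRFP, 76 in shSdc1) does not check the labels, and the sort marker Ptprc had a UMI in 27.0% and 30.5% of cells. The cells formed 18 clusters, made without the 10 cathepsins and the other lysosome genes described below. Of the 13 monocyte and macrophage markers, 10 to 12 were at least 2-fold higher in each of the 6 clusters called monocyte/macrophage-like than in cells of the other classes. The other named classes were conventional, migratory and plasmacytoid dendritic cell (DC)-like, neutrophil-like, T-like, NK-like, and B and plasma-like. Clusters 7 and 11 scored best for monocytes and macrophages, each with 11 of the 13 markers at 2-fold, but stayed unnamed. Their 10 leading genes held none of these markers but held a marker of another class, Mmp9 (neutrophil) in cluster 7 and Mgl2 (conventional DC) in cluster 11. The libraries shared 17 barcode sequences among kept cells.

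Most cathepsins are made as inactive precursors and work in the acid of late endosomes and lysosomes, where they degrade proteins that a cell has taken up. Ctsb, Ctsl, Ctss, Ctsk, Ctsh, Ctsz, Ctsc and Ctsw encode papain-like cysteine proteases, Ctsd an aspartic protease and Ctsa a serine carboxypeptidase. In macrophages and dendritic cells they cut antigens and the invariant chain of MHC class II, and tumor macrophages are known as a main source of them.

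In monocyte/macrophage-like cells the 10 genes together took 1.22% of UMIs in shRFP and 1.64% in shSdc1, a ratio of 1.35 (1.32 to 1.37). In T-like cells they took 0.159% and 0.154%, in conventional DC-like cells 0.361% and 0.300%, and in migratory DC-like cells 0.319% and 0.332%. Across the 8 clusters that scored best for monocyte and macrophage markers, the 6 named ones and the unnamed clusters 7 and 11, the sum ran in shRFP from 0.670% in cluster 14, led by Fn1 and Il1b, to 1.64% in cluster 2, led by Gdf15, Hmox1 and Gpnmb. The leading genes of cluster 14 also held Tnip3, a conventional DC marker, and Cd14, a macrophage marker. Cluster 2 was also the highest in shSdc1, at 1.83%, and cluster 6, led by the monocyte genes Chil3, Plac8 and Ly6c2, the lowest, at 0.751%.

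**Figure D1:**
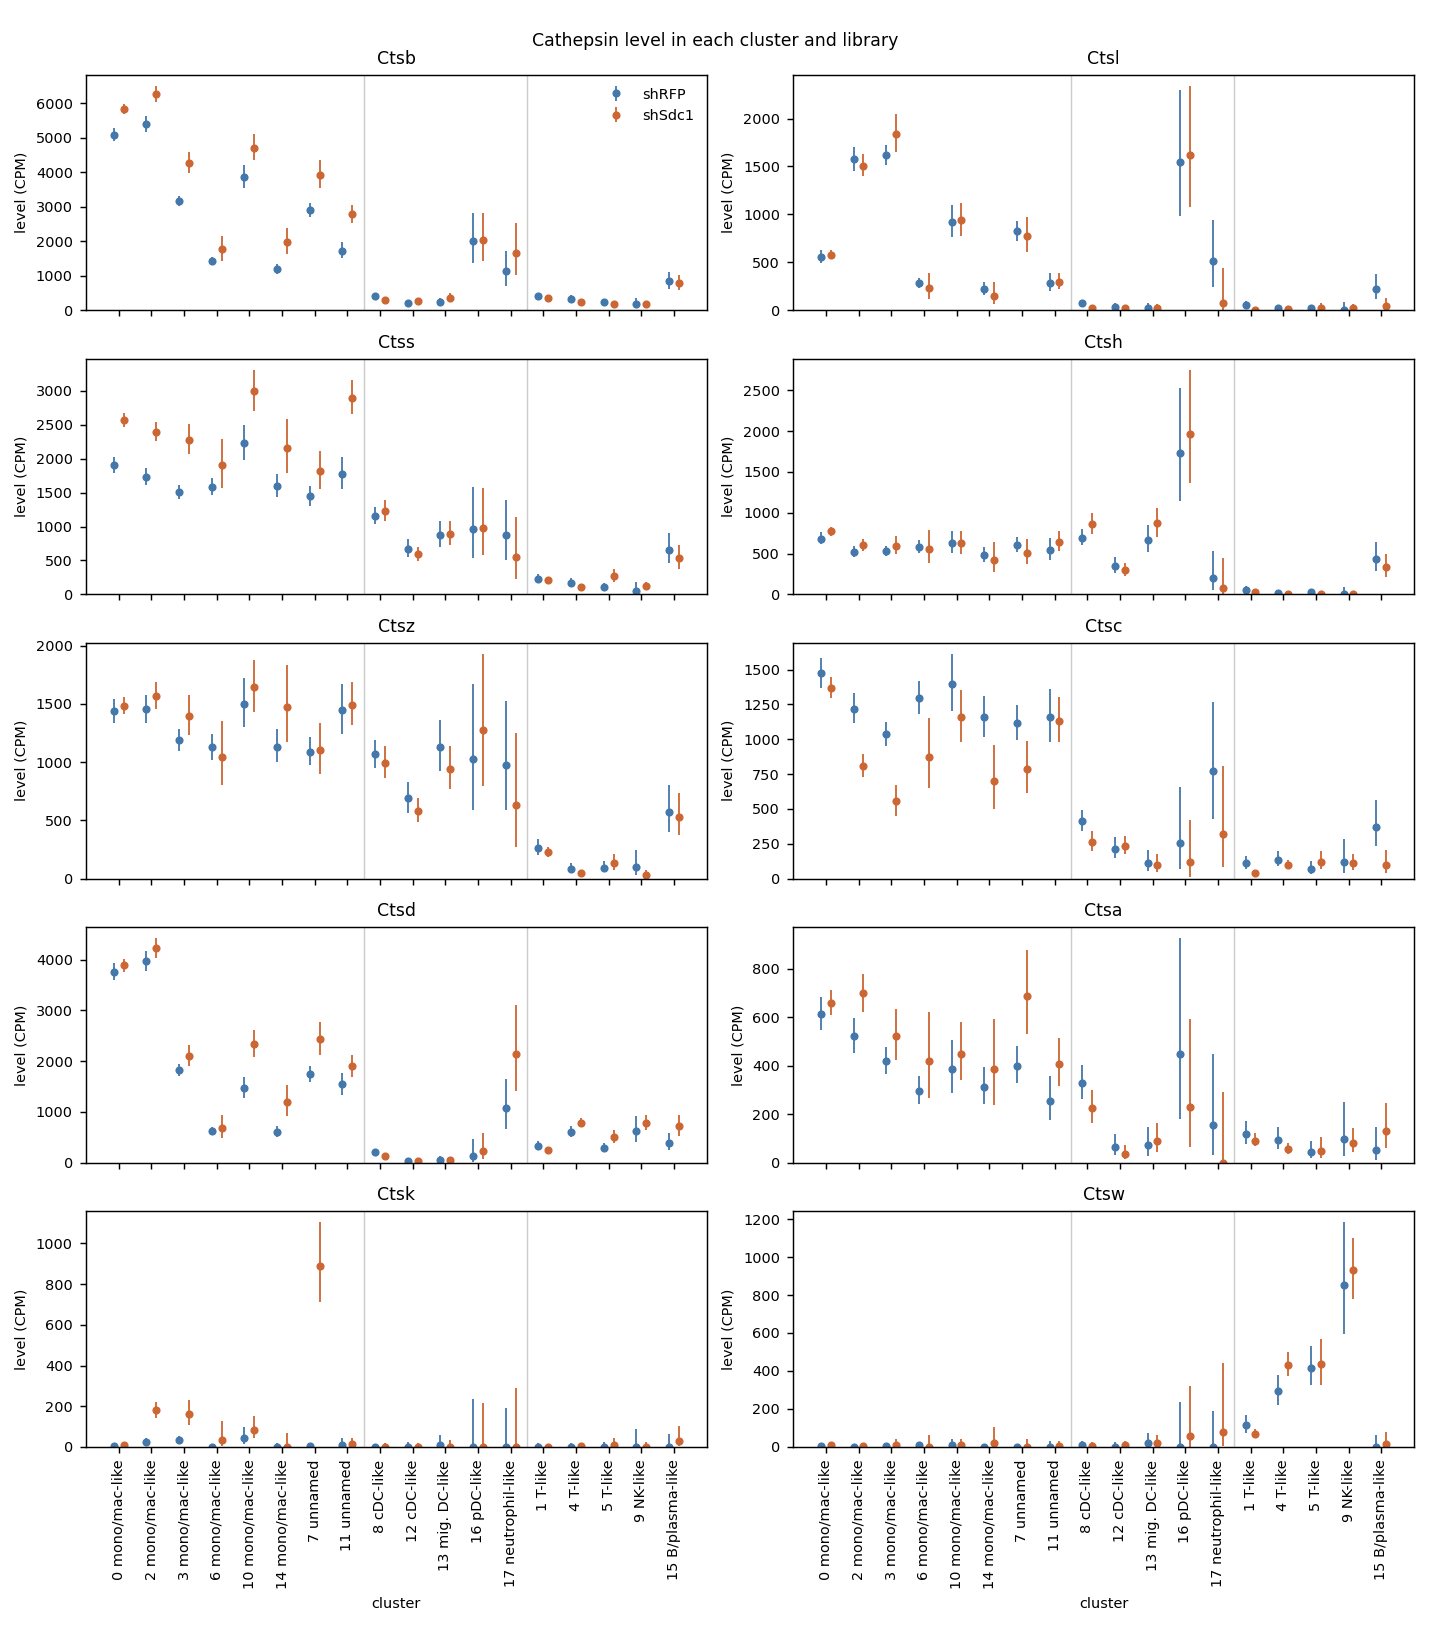
Level of each cathepsin gene in CPM (UMIs of the gene scaled to 1000000 UMIs of the cells) in each of 18 clusters, with 1 point per library and exact Poisson 95% intervals. Ctsb and Ctsd are highest in the monocyte/macrophage-like clusters 0 and 2. Ctsl is high in clusters 2 and 3 and in plasmacytoid DC-like cells. Ctsh is highest in plasmacytoid DC-like cells, and Ctsw in NK-like and T-like cells. The isolated Ctsk point is cluster 7 of shSdc1, where 1 cell held 68 of 84 UMIs.

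Ctsb encodes cathepsin B, an abundant cysteine protease of phagocytes (chromosome 14, bases 63122462 to 63145923, plus strand; all positions are from GENCODE M21 on mm10). Its level in monocyte/macrophage-like cells was 3591 CPM in shRFP and 5479 CPM in shSdc1. The next class, plasmacytoid DC-like cells, had 1992 and 2026 CPM, and its interval overlapped that of the neutrophil-like cells (1129 and 1660 CPM). T-like cells (336 and 282 CPM), conventional DC-like cells (343 and 274 CPM) and NK-like cells (170 and 166 CPM) were at the low end. Ctsb also separated the macrophage states from each other. The Gdf15 cluster 2 had 5385 and 6275 CPM and the C1q and Ccl8 cluster 0 had 5091 and 5839 CPM, against 1423 and 1764 CPM in the monocyte cluster 6.

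Ctsl encodes cathepsin L, an endopeptidase with broad cleavage (chromosome 13, 64359337 to 64370890, minus strand). It followed another pattern among macrophage states than Ctsb: the inflammatory cluster 3, led by Cxcl3, Cxcl1 and Inhba, had 1616 CPM in shRFP and 1838 CPM in shSdc1, and cluster 2 had 1574 and 1509 CPM. The C1q and Ccl8 cluster 0, high in Ctsb, had only 559 and 578 CPM of Ctsl. In the small plasmacytoid DC-like class of 27 and 33 cells Ctsl stood at 1542 and 1621 CPM, above the 954 and 928 CPM of monocyte/macrophage-like cells, although in shRFP these intervals overlapped. Conventional DC-like cells had 56.8 and 21.3 CPM.

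Ctss, Ctsh and Ctsz were spread more evenly over antigen-presenting cells. Ctss, on chromosome 3 (95526786 to 95556403, plus strand), encodes cathepsin S, which trims the invariant chain and stays active at neutral pH. Its level was 1710 and 2499 CPM in monocyte/macrophage-like cells, 981 and 900 CPM in conventional DC-like cells and 870 and 886 CPM in migratory DC-like cells. The conventional, migratory and plasmacytoid DC-like and neutrophil-like classes did not differ in Ctss beyond their intervals, while T-like cells had 172 and 173 CPM.

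Ctsh encodes an aminopeptidase (chromosome 9, 90054152 to 90076089, plus strand). Its highest level, 1735 and 1968 CPM, was in plasmacytoid DC-like cells in both libraries, without overlap with the next class. Migratory DC-like cells followed with 666 and 869 CPM, then monocyte/macrophage-like cells with 574 and 689 CPM and conventional DC-like cells with 572 and 567 CPM. Ctsh was nearly flat across the 8 clusters that scored best for monocyte and macrophage markers, between 480 and 684 CPM in shRFP and between 424 and 774 CPM in shSdc1.

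Ctsz encodes cathepsin Z, a carboxypeptidase also named cathepsin X (chromosome 2, 174427493 to 174439039, minus strand). It had 1300.0 and 1494 CPM in monocyte/macrophage-like cells and 1126 and 940 CPM in migratory DC-like cells. The intervals of neighbouring classes overlapped from monocyte/macrophage-like to conventional DC-like cells (931 and 780 CPM) in both libraries.

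Ctsc encodes a dipeptidyl peptidase that activates granzymes and other serine proteases of granules (chromosome 7, 88278085 to 88310888, plus strand). Monocyte/macrophage-like cells had 1252 CPM in shRFP and 1106 CPM in shSdc1, and neutrophil-like cells (770 and 316 CPM, from 32 and 26 cells) came second, with overlapping intervals in shRFP. Although granzymes are made in T and NK cells, Ctsc was low there, at 106 and 73.5 CPM in T-like and 121 and 110 CPM in NK-like cells.

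Ctsd, the aspartic protease (chromosome 7, 142375911 to 142388038, minus strand) was high in monocyte/macrophage-like cells, with 2336 and 3512 CPM, and next in neutrophil-like cells, with 1078 and 2134 CPM. Conventional DC-like cells had 148 and 80.3 CPM. Of the lymphocytes, NK-like cells had 632 and 773 CPM and T-like cells 414 and 507 CPM, both above conventional and migratory DC-like cells without overlap of the intervals in either library. The intervals of the few plasmacytoid DC-like cells overlapped those of T-like cells. Among the monocyte/macrophage-like clusters it ran from 613 CPM in cluster 14 to 3963 CPM in cluster 2 in shRFP. Ctsd shares 6757 bases on the same strand with the gene model Gm49369, and how reads there were assigned is not stated.

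Ctsa encodes protective protein, a carboxypeptidase that also stabilises the lysosomal enzymes of Glb1 and Neu1 (chromosome 2, 164832873 to 164841032, plus strand). It had 451 and 626 CPM in monocyte/macrophage-like cells, 234 and 128 CPM in conventional DC-like cells and 88.5 and 71.7 CPM in T-like cells. The 450 and 232 CPM of plasmacytoid DC-like cells rest on few cells, and their intervals overlapped those of the neighbouring classes.

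Ctsw, on chromosome 19 (5465043 to 5468507, minus strand), is known from cytotoxic lymphocytes. NK-like cells had 850 CPM in shRFP and 932 CPM in shSdc1, above the 260 and 262 CPM of T-like cells without overlap. Among the T-like clusters, cluster 5, led by Lef1, Satb1 and Tcf7, had 417 and 436 CPM, the Cd8a cluster 4 had 293 and 434 CPM and the Foxp3 cluster 1 had 113 and 65.5 CPM. The ratio of shSdc1 to shRFP in the Cd8a cluster was 1.48 (1.10 to 2.03), from 56 and 194 UMIs. In monocyte/macrophage-like cells only 9 and 14 Ctsw UMIs were seen, 1.57% and 2.83% of the T-like level. Over 8 T cell genes such as Cd3e and Lck that macrophages should lack, the same percent had a median of 0.858% and 0.784%. It reached 3.72% and 2.78%, both for Cd28, so that Ctsw lay within the range of these genes in shRFP and just above it in shSdc1. The next highest genes, Cd2 in shRFP (1.36%) and Lck in shSdc1 (1.61%), were below Ctsw, with overlapping intervals.

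The genes whose levels over 32 values (16 clusters in each library) were most like a member's are given here as a description, since clusters of a library share its depth and preparation. On log2(CPM + 50), Ctsb was most like C3ar1 (Pearson r = 0.971), Hmox1 and Trem2, and Ctsl was most like Ccl7 (0.973), Hmox1 and C3ar1. Ctsa was most like Cebpa (0.926), Lrp1 and Fcgr3, and Ctsc like Csf1r (0.952), Lyz2 and Fcgr3. Ctss was most like App (0.956), Lgals3 and Gpx1, Ctsh like Plekho1 (0.948), Spi1 and Atp6v0b, and Ctsz like Atp6v0b (0.934), Plekho1 and Gpx1. Ctsd had weaker partners, Cd84 (0.883), Timp2 and Tpp1, while Ctsw followed the lymphocyte genes Ms4a4b (0.949), Nkg7 and Ctla2a. Among the members, Ctss and Ctsz (0.962), Ctsh and Ctsz (0.955) and Ctsb and Ctsl (0.946) were closest, and Ctsd and Ctsh had an r of 0.194.

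Between the libraries, 4 of the 10 genes were at least 1.5-fold higher in shSdc1 in monocyte/macrophage-like cells, Ctsk, Ctsw, Ctsb and Ctsd, against 13.9% of the 9124 genes with at least 20 UMIs in that class. None was at least 1.5-fold lower, against 9.11% of these genes. The ratio was 1.53 (1.48 to 1.57) for Ctsb, 1.503 (1.45 to 1.56) for Ctsd, 1.46 (1.40 to 1.53) for Ctss and 1.39 (1.27 to 1.51) for Ctsa. It was 1.20 for Ctsh, 1.15 for Ctsz, 0.973 for Ctsl and 0.884 (0.835 to 0.936) for Ctsc. Ctsw passed 1.5-fold on 9 and 14 UMIs, and the interval of its ratio, 0.728 to 4.73, included 1. Its level lay within or just above the range of the T cell background genes, whose upper end was Cd28 alone. The median log2 ratio of the 10 genes was 0.51, and that of all genes tested 0.07. Ctsb and Ctsd lie at the threshold, and 2 genes passed it instead of 4, Ctsk and Ctsw, under TMM or median-of-ratios scaling, with each cluster weighted alike, and when no doublets were removed. With at least 500 genes per cell or under 5% mitochondrial UMIs, only Ctsk passed.

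The mix of macrophage clusters differed between the libraries, and these values are given beside the ratios. In shRFP the class was held mostly by clusters 3 (650 cells), 6 (636), 0 (532) and 2 (407), and in shSdc1 by clusters 0 (1262 cells) and 2 (505), the clusters with the highest Ctsb and Ctsd. With each cluster given the same weight in both libraries, the ratio was 1.20 for Ctsb, 1.09 for Ctsd, 1.19 for Ctsa and 1.37 for Ctss. For Ctsc it was 0.771, farther from 1 than the plain ratio. The dissociation stress list moved with the libraries as well: 8 of its 15 genes were at least 1.5-fold lower in shSdc1 in this class, among them Junb (2020 to 1205 CPM), Zfp36, Atf3 and Hspa1a, none was higher, and its summed level was 12788 CPM in shRFP and 8127 CPM in shSdc1. The part of the stress genes in the cathepsin ratios was not tested.

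Within clusters, Ctss, Ctsb, Ctsa and Ctsd were higher in shSdc1 in each of the 8 clusters that scored best for monocyte and macrophage markers, the 6 named ones and the unnamed clusters 7 and 11, as were 4.27% of the 1522 genes with at least 20 UMIs in every one of them. Ctsc was lower in shSdc1 in all 8, as were 4.80% of these genes. Ctss had ratios between 1.20 and 1.63, with the interval above 1 in 7 clusters. In the C1q and Ccl8 cluster 0 it had 1902 CPM in shRFP and 2573 CPM in shSdc1, a ratio of 1.35 (1.26 to 1.46), in the inflammatory cluster 3 the ratio was 1.51 (1.34 to 1.70), and in cluster 11, led by Retnla and Ear2, it was 1.63 (1.39 to 1.92). Ctsb, with ratios from 1.15 in cluster 0 to 1.67 in cluster 14, also had its interval above 1 in 7 clusters.

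The Ctsd ratio within clusters was 1.03 (0.979 to 1.09) in cluster 0 and 1.07 (0.998 to 1.14) in cluster 2, where its level was highest. It reached 1.59 (1.33 to 1.92) in cluster 10, led by the interferon-induced genes Rsad2 and Ifit1, and 1.96 (1.43 to 2.65) in cluster 14. Ctsa had ratios from 1.07 to 1.72 and an interval above 1 in 3 clusters. Ctsc was lowest relative to shRFP in the inflammatory cluster 3, with 1039 CPM in shRFP, 554 CPM in shSdc1 and a ratio of 0.533 (0.428 to 0.658), and in the Gdf15 cluster 2 the ratio was 0.664 (0.579 to 0.761). In cluster 0 it was 0.930 (0.851 to 1.02), and the intervals of 5 of the 8 clusters lay below 1. Ctsz was higher in 7 clusters, with 1 interval above 1, and Ctsh and Ctsl were higher in 4 and lower in 4.

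**Figure D2:**
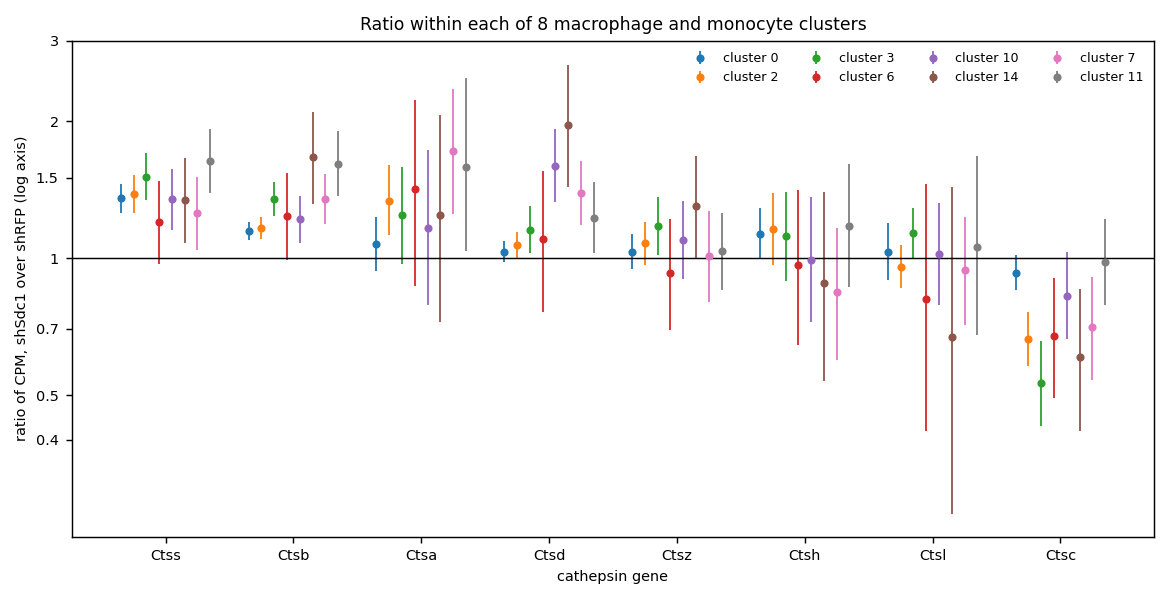
Ratio of CPM, shSdc1 over shRFP, on a log axis for 8 cathepsin genes within each of the 8 clusters that scored best for monocyte and macrophage markers, with exact 95% intervals for counting error. All 8 points of Ctss, Ctsb, Ctsa and Ctsd lie above 1 and all 8 points of Ctsc below it.

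The share of cells with a UMI was compared after each cell was thinned to 300 UMIs, which left out 82 shRFP and 148 shSdc1 monocyte/macrophage-like cells with fewer. A Ctsb UMI was found in 55.3% (53.3 to 57.3) of the thinned shRFP cells and in 72.0% (70.0 to 73.8) of the shSdc1 cells, and without thinning in 75.1% and 87.3%, at median depths of 718 and 662.5 UMIs. For Ctss the thinned shares were 36.5% and 47.0%, for Ctsd 36.4% and 53.1%, and for Ctsc 28.0% and 25.5%. In T-like cells, with median depths of 394 and 436 UMIs, a Ctsb UMI was found in 8.44% and 7.97% of thinned cells. The T-like shares were 4.64% and 5.47% for Ctss, 9.99% and 13.8% for Ctsd, and 3.33% and 2.29% for Ctsc, each below the macrophage share of the same library without overlap of the intervals.

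The lysosome genes around the cathepsins were followed in lists. Of 32 lysosomal exopeptidases and hydrolases, all measured in monocyte/macrophage-like cells, 11 were at least 1.5-fold higher in shSdc1 and none lower, with a median log2 ratio of 0.42, against 13.9% of all genes tested higher and 9.11% lower. Among them were Man2b1, a mannosidase (161 to 286 CPM), and Acp5, the tartrate-resistant acid phosphatase (71.0 to 110 CPM). Of 5 measured cathepsin inhibitors 3 were higher and none lower, Serpina3g (13.6 to 46.5 CPM), Ctla2a (3.18 to 13.7 CPM) and Ctla2b, all at low levels and against the same 13.9%. Ctla2a stood at 407 and 478 CPM in T-like cells, so that its UMIs in monocyte/macrophage-like cells, 7 and 26, were few beside those of lymphocytes. Of 6 sorting genes, Grn, which encodes progranulin (1066 to 1948 CPM), and Igf2r, a receptor for mannose 6-phosphate (35.0 to 55.5 CPM), were higher.

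Of 11 measured lysosomal membrane genes only Cd63 passed 1.5-fold (596 to 1057 CPM), and of 16 proton pump subunits only Atp6v0d2 (22.3 to 51.2 CPM), with none lower in either list and a median log2 ratio of 0.01 for the pump. The transcription factor genes Tfeb, Tfe3, Mitf and Tfec, which encode regulators of lysosome genes, had ratios between 0.866 and 1.04. Neither the 4 lipid transfer genes nor the 3 measured genes of class II peptide loading passed 1.5-fold. Of 4 measured other endopeptidases, Napsa, the aspartic protease napsin A, was lower in shSdc1 (154 to 47.0 CPM) and the other 3 did not pass. The same clusters of macrophages make up these values, so the difference in cluster mix applies to them too.

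Promoter windows of 250 bases before a start site (RefSeq, GRCm38.p6) were found for 7 members, with 8 starts, and were searched for CACGTG, the E-box that the factors of the Tfeb family bind, and for the longer TCACGTGA. Both motifs read the same on either strand, and each longer match holds a shorter one. CACGTG was in 3 of the 8 windows, those of Ctsd, Ctsl and 1 of the 2 Ctsa starts, and in 6.02% of all 32851 windows. TCACGTGA was in 2 of the 8, those of Ctsa and Ctsd, and in 0.785% of all. The Ctsc, Ctsk, Ctss and Ctsz windows held neither. Of the 4 genes that were higher in shSdc1 in all 8 clusters, Ctsa and Ctsd had a match, Ctss had none and Ctsb had no window. Any part of the motifs in the ratios was not tested. The 30 bases around each match are shown. They are printed 5′ to 3′ on the gene's strand with the match in capitals.
Ctsa, chr2:164833743-164833772, plus strand: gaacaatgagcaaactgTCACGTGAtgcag
Ctsd, chr7:142387908-142387937, minus strand: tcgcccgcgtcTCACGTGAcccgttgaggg
Ctsd, chr7:142388048-142388077, minus strand: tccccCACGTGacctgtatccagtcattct
Ctsl, chr13:64370739-64370768, minus strand: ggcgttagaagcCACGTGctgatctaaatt
The E-box begins 12 bases before the start in Ctsa, 98 and 245 bases before it in Ctsd and 236 bases before it in Ctsl. A match of letters is a description and not a measured binding site. GENCODE exons of the same gene cover 164 of the 250 bases in this Ctsa window, 211 in that of Ctsd and 48 in that of Ctsl. The window of the other Ctsa start held no match. Ctsb, Ctsh and Ctsw had no entry.

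Ctsk encodes cathepsin K, the collagen-degrading protease by which osteoclasts resorb bone, and lies 17.4 kb before Ctss on chromosome 3 (95499256 to 95509362, plus strand). It was rare, with 40 UMIs in 35 of 4983 shRFP cells and 223 UMIs in 86 of 5313 shSdc1 cells. In monocyte/macrophage-like cells the level was 16.8 CPM in shRFP and 70.3 CPM in shSdc1, a ratio of 4.18 (2.88 to 6.18), and in conventional DC-like and NK-like cells it was listed at 0 in both libraries.

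A few cells held much of this Ctsk. In shRFP no cell had more than 2 UMIs, whereas in shSdc1 1 cell had 68, 1 had 30 and 1 had 15, and the first 2 together held 43.9% of the library's Ctsk UMIs. Without these 2 cells the ratio was 3.001 (2.09 to 4.40) over all kept cells and 3.24 (2.20 to 4.85) in monocyte/macrophage-like cells, with 37 UMIs in 32 cells against 103 UMIs in 77 cells. In the unnamed cluster 7, where Ctsk was a leading gene, 84 UMIs in shSdc1 stood against 1 in shRFP, and 16 remained in 2 cells once the cell with 68 was left out. In the Gdf15 cluster 2 the level was 24.5 CPM in shRFP and 115 CPM in shSdc1 without the cell with 30 UMIs, and in the inflammatory cluster 3, where no cell had more than 3, it was 34.5 and 161 CPM, a ratio of 4.67 (2.55 to 8.79).

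The cell with 68 Ctsk UMIs, of 2717 in all, also held 46 UMIs of Acp5, 31 of Mmp9, a matrix metalloprotease, and 9 of Atp6v0d2, all genes known from osteoclasts. It had 2 UMIs of Csf1r and none of Lyz2, Ctsb, Ctsl or the fibroblast gene Col1a1. The cell with 30 UMIs, in cluster 2, had 2 of Acp5, 3 of Atp6v0d2, 1 of Csf1r, 2 of Ctsb and 0 of Mmp9. The cell with 15, in cluster 7, had 17 of Mmp9, 3 of Acp5, 10 of Ctsb and 0 of both Atp6v0d2 and Csf1r. These 3 cells were singled out after their Ctsk counts were seen, so their other genes are given as values only. The 3 genes most like Ctsk over clusters were Lhfpl2 (0.731), Slc6a8 and Gadd45a, with these cells included.

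**Figure D3:**
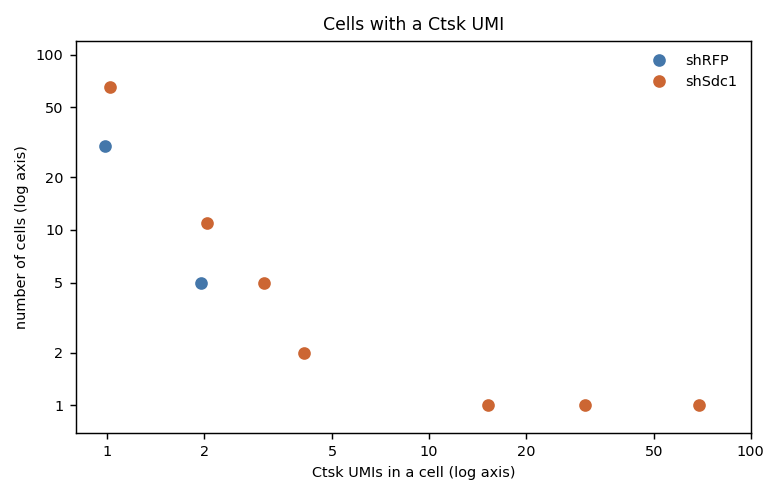
Number of cells (log axis) with a given number of Ctsk UMIs (log axis) in the kept cells of each library, points of the 2 libraries set slightly apart. The shRFP cells have 1 or 2 UMIs, and the 3 cells on the right, with 15, 30 and 68, are from shSdc1.

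Conventional DC-like cells gave other ratios. Of the 8 cathepsins with at least 20 UMIs there, 3 were at least 1.5-fold lower in shSdc1, Ctsa, Ctsd and Ctsl, against 12.7% of 5363 genes, and none was at least 1.5-fold higher, against 13.5%. Ctsa had 234 CPM in shRFP and 128 CPM in shSdc1, a ratio of 0.545 (0.385 to 0.765), and Ctsd a ratio of 0.544 (0.348 to 0.836). Ctsl, with 25 and 9 UMIs, had 0.375 (0.154 to 0.830). Ctsh (0.991), Ctss (0.918), Ctsz (0.837), Ctsb (0.799) and Ctsc (0.721) stayed within 1.5-fold.

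Cluster 8, led by Cd209a and Mgl2 as in type 2 conventional DCs, made up 284 of 426 shRFP and 195 of 360 shSdc1 cells of this class, and cluster 12, led by Xcr1 and Irf8 as in type 1, the rest. With the 2 clusters weighted alike the ratios were 0.671 for Ctsa, 0.648 for Ctsd and 0.391 for Ctsl, so that Ctsa no longer passed 1.5-fold. Within cluster 8 the Ctsa level was 328 and 225 CPM, a ratio of 0.686 (0.471 to 0.987), and that of Ctsd 208 and 122 CPM, a ratio of 0.588 (0.353 to 0.953). Within cluster 12 Ctsd had 6 and 9 UMIs and a ratio of 1.08 (0.342 to 3.67), at which depth no difference could be seen. Of 7 measured macrophage genes used as background, 3 were also at least 1.5-fold lower in shSdc1 conventional DC-like cells and 1 higher, and 11 of 15 stress genes were lower. Over the 9 background genes the summed level in this class was 1919 CPM in shRFP and 1455 CPM in shSdc1. In monocyte/macrophage-like cells it was 25914 and 36876 CPM. Ctsd had 148 and 80.3 CPM in conventional DC-like cells, against 2336 and 3512 CPM in monocyte/macrophage-like cells. Ctsl had 56.8 and 21.3 CPM, against 954 and 928 CPM. Whether these low DC levels exceed the background was not tested. The part of the background and stress genes in the DC ratios was not tested.

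**Figure D4:**
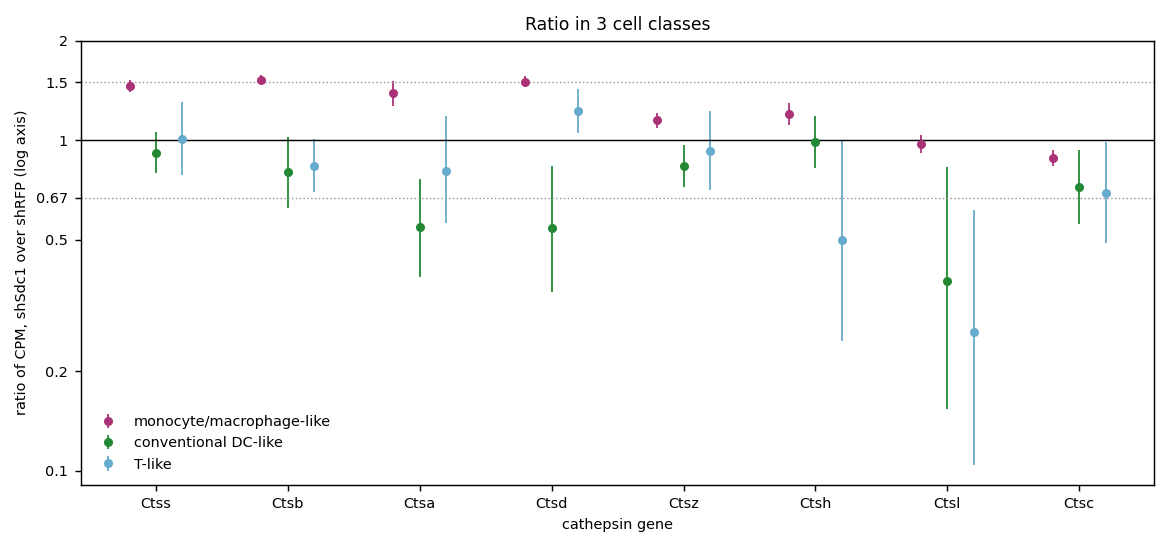
Ratio of CPM, shSdc1 over shRFP, on a log axis for 8 cathepsin genes in 3 cell classes, with exact 95% intervals for counting error and dotted lines at 1.5-fold in either direction. Ctsd is at 1.503 in monocyte/macrophage-like cells and at 0.544 in conventional DC-like cells, and Ctsl has its lowest ratio, 0.263, in T-like cells.

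In T-like cells none of 9 measured cathepsins was at least 1.5-fold higher in shSdc1, against 12.9% of 7674 genes, and 2 were lower, Ctsl and Ctsh, against 7.45%. Ctsl had 31.9 CPM in shRFP and 8.38 CPM in shSdc1, from 18 and 9 UMIs, a ratio of 0.263 (0.104 to 0.616). Ctsh had 33.6 and 16.8 CPM, from 19 and 18 UMIs, a ratio of 0.498 (0.247 to 1.003). Both genes passed the threshold on few UMIs, and neither did when cells were thinned to 300 UMIs. The minimum number of UMIs for a call still applied then, so this does not show that their ratios changed. Among thinned cells, each gene had a UMI in 0.595% in shRFP and 0.485% in shSdc1. Over 13 alternatives the ratio stayed below 1, from 0.134 to 0.729 for Ctsl and from 0.436 to 0.704 for Ctsh. Neither gene was called lower under Scrublet's automatic threshold, which marked only 1 and 0 doublets.

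Of the 15 stress genes, 8 were at least 1.5-fold lower in shSdc1 T-like cells and none higher, and their summed level was 7658 CPM in shRFP and 5975 CPM in shSdc1. Macrophage RNA was also less frequent in T-like cells of shSdc1, and the part of either in the T-like ratios was not tested. All 6 measured macrophage background genes were at least 1.5-fold lower there. As a percent of the monocyte/macrophage-like level, the 9 background genes, such as C1qa, Apoe and Lyz2, had a median of 3.18% in shRFP (0.840% to 5.91%) and 0.681% in shSdc1 (0 to 1.33%). Ctsl at 3.34% and 0.902% and Ctsh in shRFP at 5.85% were within these ranges. Ctsh in shSdc1, at 2.43% (1.44% to 3.86%), was above, but its interval overlapped that of Csf1r (0.488% to 2.92%).

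By point value, another 6 cathepsins of T-like cells were above the background genes in both libraries, while Ctsk had 0 and 2 UMIs there. In shRFP the interval of Ms4a7 (3.29% to 9.79%), the highest background gene, overlapped those of Ctsz, Ctss, Ctsb and Ctsc. Ctsa was at 19.6% and 11.5% of the monocyte/macrophage-like level, Ctsd at 17.7% and 14.4%, Ctsz at 11.7% and 9.47%, Ctss at 10.0% and 6.93%, Ctsb at 9.37% and 5.15%, and Ctsc at 8.49% and 6.65%. Their own ratios between the libraries in T-like cells were 1.22 (1.05 to 1.43) for Ctsd, which was 0.949 in cells with at least 500 genes, and between 0.692 for Ctsc and 1.01 for Ctss for the rest. In the Cd8a cluster 4 Ctsd had 607 CPM in shRFP and 790 CPM in shSdc1, a ratio of 1.30 (1.05 to 1.62), in cluster 5 the ratio was 1.71 (1.15 to 2.55), and in the Foxp3 cluster 1 it was 0.775 (0.576 to 1.05). In B and plasma-like cells the macrophage background genes reached a median of 16.0% in shRFP and 10.4% in shSdc1 of the monocyte/macrophage-like level, so that the cathepsin levels of that class were not read as its own.

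**Figure D5:**
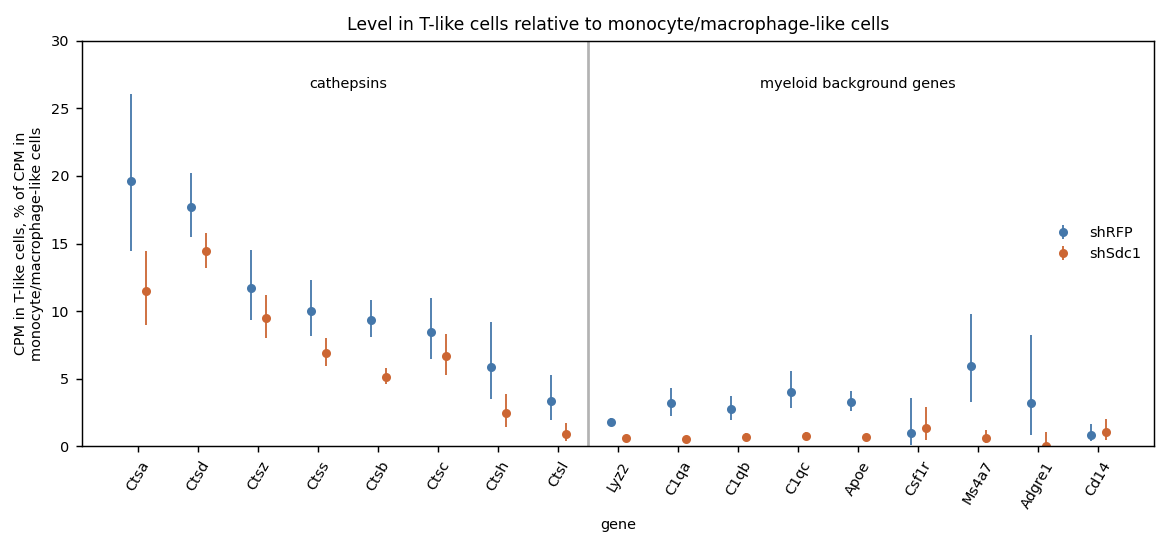
CPM in T-like cells as a percent of CPM in monocyte/macrophage-like cells, in each library, for 8 cathepsin genes and for 9 macrophage genes that T cells should lack, with exact 95% intervals for counting error. The points of Ctsa, Ctsd, Ctsz, Ctss, Ctsb and Ctsc lie above those of the background genes of the same library, with some overlap of intervals in shRFP. Ctsl lies among the background genes.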

How the data were processed

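The authors deposited unnormalized UMI counts for each gene in each barcode. Per the file headers these come from Cell Ranger 6.1.1, against mm10 per the submitters' processing notes. The annotation release and the strand setting are not given in the sources used here. Genes on the other strand overlap Ctsa, Ctsb, Ctsc, Ctsl, Ctsw and Ctsz (such as Pltp, with 1515 bases over Ctsa). On the same strand, besides Gm49369 over Ctsd, the pseudogene Hmgb1-ps5 overlaps Ctss by 557 bases and the pseudogene Gm49230 overlaps Ctsl by 395 bases. How reads in these overlaps were assigned could therefore not be checked. The deposited tables held 5786 barcodes and 4255928 UMIs (shRFP) and 5902 barcodes and 4370725 UMIs (shSdc1).

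Barcodes with at least 200 genes and under 10% mitochondrial UMIs were kept (5225 and 5576). Scrublet's automatic threshold marked 1 and 0 doublets and was judged to have failed. The 242 and 263 barcodes with the highest scores were removed instead, a share that grows with the number of deposited barcodes. Both libraries were clustered together without integration (scanpy 1.11.5, counts scaled to 10000, 2000 variable genes, 30 principal components, 15 neighbours, Leiden resolution 1). A class needed a mean marker log2 fold of 1 and 3 markers at 2-fold, against all cells or else against cells of other named classes. Clusters lost their name if another class had more markers among the 10 leading genes.

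UMIs were summed by class or cluster and library and given as CPM with exact Poisson intervals. Ratios have exact conditional binomial intervals, and shares of cells exact Clopper-Pearson intervals, all at 95%. Calls needed 20 UMIs in both libraries together and a 1.5-fold ratio. The ratio code was tested on simulated data. All 10 members are named, and of each pathway list at most the 4 genes past 1.5-fold in monocyte/macrophage-like cells with the highest CPM. Some genes that this rule names are not reported here. The genes most like a member are the 3 with the highest r among genes with at least 200 UMIs, over clusters of at least 30 cells in both libraries. Members, lists and markers were chosen with earlier results of these data known. The scoring rule for classes was set after the data were seen. The alternatives tried include edgeR's TMM factors, other filters on cells and genes, and other clusterings.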

Additional observations from a re-analysis of the deposited data

Results flagged for a closer look

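For 3 genes the ratio of shSdc1 to shRFP lay on opposite sides of 1 in different cell classes, with both counting intervals clear of 1. The difference between the classes was not tested, since each group is 1 library. Ctsa had 1.39 (1.27 to 1.51) in monocyte/macrophage-like cells and 0.545 (0.385 to 0.765) in conventional DC-like cells. Ctsd had 1.503 (1.45 to 1.56) in monocyte/macrophage-like, 1.22 (1.05 to 1.43) in T-like and 1.85 (1.11 to 3.17) in B and plasma-like cells, against 0.544 (0.348 to 0.836) in conventional DC-like cells. In T-like cells with at least 500 genes the Ctsd ratio was 0.949. In B and plasma-like cells, 20 of the 50 Ctsd UMIs of shSdc1 were in 1 cell and 8 of the 23 of shRFP in another. The ratio was 1.16 (0.652 to 2.09) without the shSdc1 cell and 1.74 (0.907 to 3.48) without both, an alternative chosen after seeing the data, and macrophage background genes were frequent in that class. Ctsz had 1.15 (1.09 to 1.21) in monocyte/macrophage-like and 0.837 (0.722 to 0.970) in conventional DC-like cells. With clusters weighted alike, these 2 classes had ratios of 1.19 and 0.671 for Ctsa, 1.09 and 0.648 for Ctsd, and 1.08 and 0.903 for Ctsz. The summed macrophage background genes were also lower in shSdc1 conventional DC-like cells (1919 and 1455 CPM). In monocyte/macrophage-like cells they had 25914 and 36876 CPM. Ctsd had 148 and 80.3 CPM in conventional DC-like cells and 2336 and 3512 CPM in monocyte/macrophage-like cells. Whether Ctsd in conventional DC-like cells exceeds the background was not tested, nor was the part of the background genes in these ratios.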

How the results depend on the processing

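No paired analysis was possible because each group is 1 library. Of the counts of cathepsins past 1.5-fold, 14 of 94 moved by over 1.5 times. In monocyte/macrophage-like cells 2 were higher instead of 4 under TMM scaling, median-of-ratios scaling and clusters weighted alike. The same count came with no doublet removal and with Scrublet's automatic threshold, which marked 1 and 0 doublets and so nearly repeats that setting. With at least 500 genes per cell or under 5% mitochondrial UMIs the count was 1 (Ctsk). In T-like cells 2 were lower, against 0 with at least 100 UMIs per gene, thinned cells or the automatic threshold, and 1 without doublet removal or with 500 genes per cell, and 1 instead of 0 was higher with no minimum on UMIs. In conventional DC-like cells 1 instead of 3 was lower with at least 100 UMIs. That minimum itself left out Ctsl (18 and 9 UMIs) and Ctsh (19 and 18) of T-like cells. It also left out Ctsd (65 and 34) and Ctsl (25 and 9) of conventional DC-like cells, so these drops do not bear on their ratios. For thinned cells the minimum of 20 UMIs still applied, so the drop in T-like cells does not show that the ratios changed. Another Leiden seed, resolution 2, clustering with the lysosome genes kept and, chosen after seeing the data, joining the unnamed clusters moved none of these counts by over 1.5 times. Median-of-ratios scaling shifted log2 ratios in monocyte/macrophage-like cells by -0.10. Over 15 alternatives there, Ctsb ran from 1.20 to 1.70, Ctsd from 1.09 to 1.68, Ctss from 1.36 to 1.52, Ctsk from 3.42 to 7.96 and Ctsc from 0.771 to 0.925. The ratio of Ctsw, 1.81, turned to 0.688 in thinned cells, with 5 and 3 UMIs. Depth limits Ctsk and Ctsw, which had few UMIs, and the small plasmacytoid DC-like and neutrophil-like classes.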
